A study of Homo sapiens with 16 samples.

Results

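The genes described are 44 that carry a human cell through mitosis: the kinases, cyclins and phosphatases of mitotic entry, the chromosomal passenger complex, the spindle assembly checkpoint, the kinetochore, the spindle motors, and the proteins of chromosome condensation and cytokinesis. They were taken by symbol from the gene expression files. All 44 were found among 28502 symbols, and all 44 had a mean of at least 1 FPKM (fragments per kilobase of transcript, scaled to the mapped fragments of the library). They are therefore 44 of the 11845 loci tested, a locus being a symbol or a set of symbols with the same values in every library. BUB1B had the same values as PAK6, its neighbour on the chromosome, and KIF20B the same as its older symbol KRMP1.

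The RNA came from HCT116, an established human colorectal carcinoma line with epithelial character. Poly(A) RNA was sequenced from 6 libraries, 1 for each combination of transfection and treatment. The transfections were siRNA against EZH1, an enzyme of Polycomb complexes that methylates lysine 27 of histone H3, siRNA against UXT, a small prefoldin-like cofactor of NF-κB, and cells labelled NC, for which the labels name no transfection and do not spell out the abbreviation. The treatments were the vehicle PBS or the cytokine TNF, with no dose or time given. The series as a whole asked how EZH1 and UXT act on transcription of NF-κB targets; its 10 chromatin samples are not analysed here. Whether a PBS library and its TNF counterpart came from the same transfected culture is not stated in the labels.

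Mitotic genes are known as periodically expressed: their transcripts are low in G1, accumulate through S and G2 phase, and are used when CDK1 with cyclin B starts mitosis. The checkpoint then holds the anaphase-promoting complex (APC/C) inactive until kinetochores are attached to spindle microtubules, after which CDC20 activates it. Their promoters are known for CCAAT boxes, bound by NF-Y, and for the cell cycle genes homology region (CHR), through which the MuvB complex acts with RB-like proteins as a repressor and with B-MYB and FOXM1 as an activator.

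The promoters of 3 members with different siUXT levels are shown: CDK1 had the largest difference of all members on the log2 scale explained later, PLK1 was slightly higher in the same library, and CCNB2, a cyclin B, was at nearly the same level. The letters are the 250 bases before the start site on the plus strand of GRCh38.p14, from RefSeq, 5′ to 3′. Capitals mark CCAAT or its reverse complement ATTGG, and the CHR letters TTTGAA or TTTAAA or their reverse complements.
CDK1, chr10:60778228-60778477, the more downstream of 2 annotated starts: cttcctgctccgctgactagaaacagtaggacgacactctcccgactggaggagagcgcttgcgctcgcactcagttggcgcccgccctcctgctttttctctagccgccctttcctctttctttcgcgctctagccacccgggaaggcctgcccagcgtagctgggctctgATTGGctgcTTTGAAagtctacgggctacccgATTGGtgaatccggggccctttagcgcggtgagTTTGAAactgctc
CCNB2, chr15:59104896-59105145: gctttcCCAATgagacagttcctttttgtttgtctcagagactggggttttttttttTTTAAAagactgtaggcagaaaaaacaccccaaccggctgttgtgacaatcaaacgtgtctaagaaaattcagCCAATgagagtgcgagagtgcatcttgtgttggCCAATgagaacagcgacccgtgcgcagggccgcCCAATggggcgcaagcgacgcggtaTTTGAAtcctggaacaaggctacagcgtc
PLK1, chr16:23678639-23678888: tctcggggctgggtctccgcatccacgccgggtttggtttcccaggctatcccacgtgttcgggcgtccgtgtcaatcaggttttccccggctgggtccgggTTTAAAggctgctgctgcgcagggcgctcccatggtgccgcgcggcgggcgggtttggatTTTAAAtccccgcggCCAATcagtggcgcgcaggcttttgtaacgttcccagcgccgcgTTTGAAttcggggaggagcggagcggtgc
Each of the 3 windows held both kinds of letters. In CDK1 a CHR match began 13 bases before the start and a CCAAT match 46 bases before it. In CCNB2 and in PLK1 a TTTGAA began 29 bases before the start, and the nearest CCAAT began 54 bases before it in CCNB2 and 73 in PLK1.

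Over windows of 300 bases, from 250 before to 50 after each start and read on both strands, 38 of the 44 members had an entry, SGOL2 under its current symbol SGO2. CCAAT was present for 29 of these 38 members (76.3%), against 43.1% of 8825 other tested loci and 39.7% of all 27305 genes of the table. The CHR letters were present for 34 (89.5%), against 20.1% of other tested loci and 27.9% of all genes. Both motifs stood in 1 window for 24 members (63.2%), against 8.39% and 11.2%. The members without the CHR letters in their windows were CCNA2, AURKB, BUB1 and SPC24. These matches are letters in a window and not bound sites. The 34 members with the CHR letters had a median log2 ratio of -0.61 in siUXT against NC under PBS, and the 4 without had -0.06. Those 4 were scattered, at -1.01 for CCNA2, -0.30 for BUB1, 0.19 for AURKB and 0.27 for SPC24. For CCAAT the medians stood in the opposite order, with -0.31 for the 29 members that had it and -0.78 for the 9 that did not. The same split over all loci is not given here. Under TNF these 4 medians lay between 0.08 and 0.17. CDK1, CCNB2 and PLK1 all held both motifs, although CDK1 was 0.245 of its NC level in siUXT under PBS and the other two were near or above theirs.

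The target transcripts were examined before the members. UXT was at 62.2 and 59.6 FPKM in NC (PBS, then TNF), 64.9 and 77.1 in siEZH1, and 27.7 and 24.6 in siUXT. EZH1 was at 5.45 and 5.12 in NC, 4.05 and 4.14 in siEZH1, and 6.27 and 6.23 in siUXT, a smaller reduction on a low level. All 6 epithelial markers were present, their summed level being 2118 and 2449 FPKM in NC, 1741 and 1885 in siEZH1, and 2568 and 2268 in siUXT, so that it was lower in siEZH1 than in NC and, under PBS, higher in siUXT. The keratins KRT8, KRT18 and KRT19 carried the sum. EPCAM was at 119.7 and 102 FPKM in NC, 154 and 129 in siEZH1, and 58.7 and 127 in siUXT, with siUXT under PBS lowest as for most members, and CLDN4 was at 114 in NC and 109.6 in siUXT under PBS. The part of these markers in the results was not tested. All 5 blood and all 5 endothelial markers stayed below 1 FPKM, as did 5 of 6 fibroblast markers, COL1A1 being at 5.04 to 8.26. Their summed levels were 0 to 0.0695 FPKM for blood, 0.0943 to 0.257 for endothelial and 5.88 to 8.64 for fibroblast markers. PTPRC, CD3E, CD14 and HBB among the blood markers, KDR among the endothelial ones, and DCN and LUM among the fibroblast ones were listed at 0 in every library. The read depth is not given. From the smallest steps between low values, depth relative to NC under PBS was 0.719 for NC under TNF, 1.02 and 0.720 for siEZH1 under PBS and TNF, and 0.951 and 0.958 for siUXT. The siUXT library under PBS stood apart for the members: it was the lowest of the 6 for 26 of 44 and the highest for 6. The share of all loci with their lowest level there was not counted. For siUXT against NC, 3.06% of loci were at least 1.5-fold lower under TNF and 16.4% under PBS, so this library also stood apart over all loci. A ratio to this library has no value without it, so the siUXT values under TNF and the fits without this library are given as well. In bulk RNA, fewer cells in or near mitosis and less RNA per cell cannot be told apart.

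With 1 library per condition, a difference between 2 libraries has no replicate check and no p-value. The test is limma on log2(FPKM + 1) with additive terms for transfection and treatment over all 6 libraries, which treats the PBS and TNF libraries of a transfection as its replicates. Folds and log2 ratios below are on the log2(FPKM + 1) scale, which understates differences of genes near 1 FPKM. Paired values are always given with PBS first and TNF second.

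Under PBS, siUXT cells had lower levels of many members. On the log2(FPKM + 1) scale, CDK1, SGOL2 and TTK had the lowest ratios, and condensation and cytokinesis genes the lowest group medians. As plain ratios of FPKM, SGOL2 (0.150), ASPM (0.218) and KIF14 (0.229) were below CDK1 (0.245). By group, 3 of 4 condensation genes, 1 of 2 cytokinesis genes, 4 of 12 spindle genes, 3 of 8 checkpoint genes, 2 of 8 entry genes, 1 of 7 kinetochore genes and 0 of 3 passenger complex genes were at least 2-fold lower. In all, 14 of the 44 members were, against 6.52% of all loci. At 1.5-fold, 20 members were lower, against 16.4% of loci, and 0 were higher, against 4.11%. The members' median log2 ratio was -0.37, and that of all loci was 0.04. Under TNF the members' median was 0.15, with 31 of 44 above 0 where 52.0% of loci were, and the ratios lay between -0.59 and 0.42. At 1.5-fold, 1 member, BIRC5, was lower under TNF (3.06% of loci) and 0 were higher (3.12% of loci).

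The limma fit over 6 libraries called 0 members for siUXT, and it called 0.0422% of loci (5 loci). In this fit a disagreement between the PBS and TNF ratios counts as spread. CDK1, at -1.98 under PBS and 0.11 under TNF, had an SE of 0.49. Before adjustment, 1 member had p under 0.05, BIRC5 (3.65% of loci had such a p), with a log2 change of -0.49 (SE 0.17) and a Benjamini-Hochberg adjusted p of 0.91 by limma. Without the siUXT library under TNF, the siUXT effect rests on the PBS library alone: limma then called 22 members lower, against 18.4% of loci, and 2 higher, CDC25B and CDC20, against 12.0% of loci. That fit takes the spread of each locus from the NC and siEZH1 libraries, on 1 residual degree of freedom. It then draws this spread towards that of other loci of similar level, with a prior of 5.18 degrees of freedom. It assumes that the lone siUXT library varies like the NC and siEZH1 libraries. In that fit CDK1 had a log2 change of -1.95 and, under that assumption, an adjusted p of 3.15e-04 by limma. Without the siUXT library under PBS, limma called 1 member lower, BIRC5, against 0.650% of loci.

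**Figure D1:**
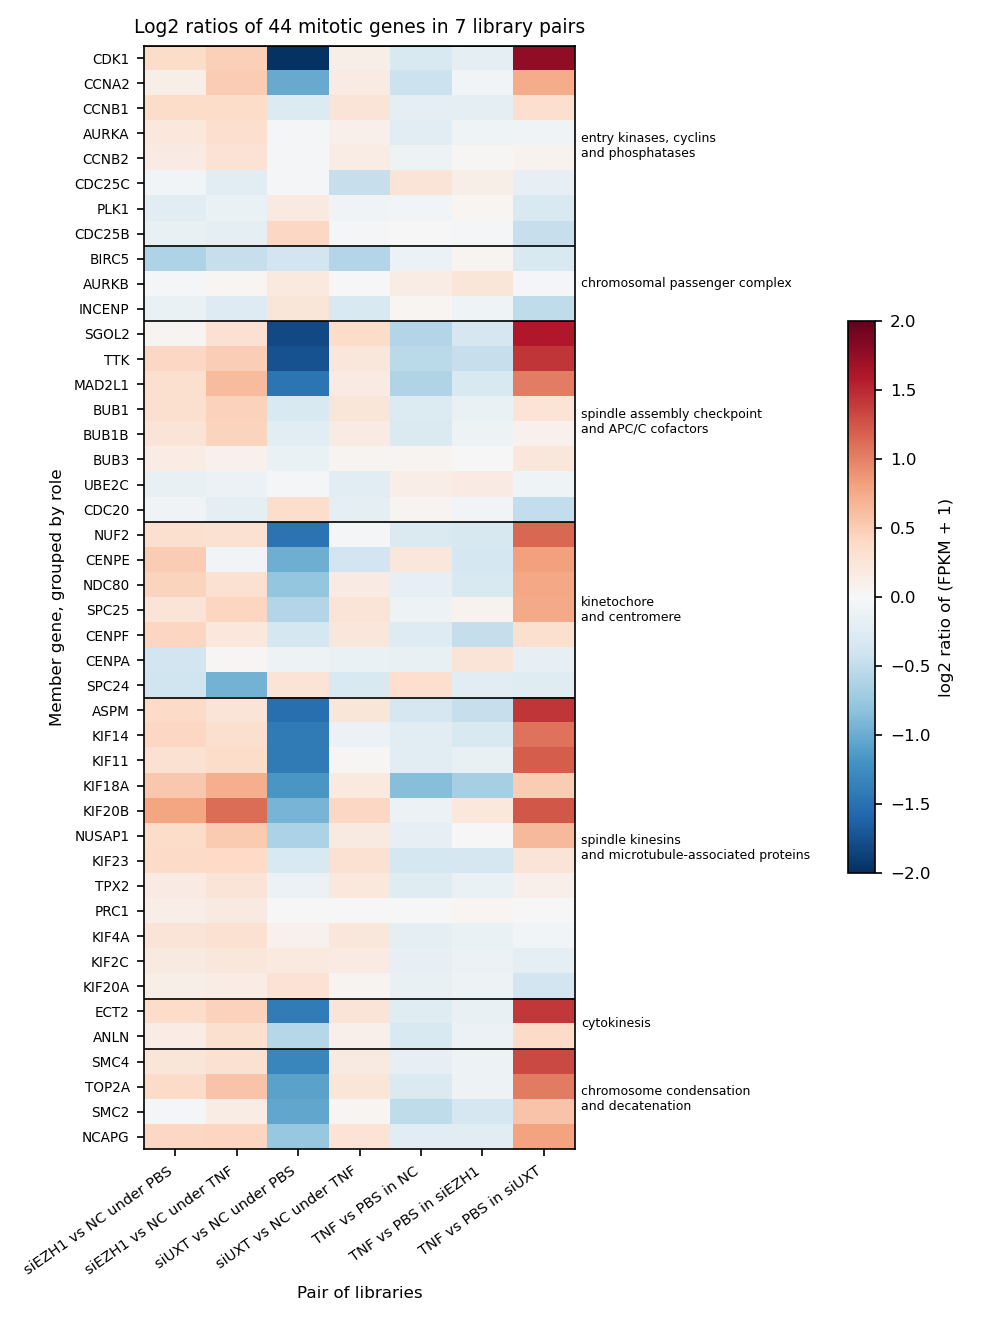
Log2 ratio of each of the 44 members (rows, grouped by role) in the 4 knockdown-against-NC pairs and the 3 TNF-against-PBS pairs (columns), on the log2(FPKM + 1) scale with the colour scale in log2 units. The siUXT column under PBS runs from -1.98 for CDK1 to 0.41 for CDC25B, while the siUXT column under TNF stays between -0.59 and 0.42.

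Among the entry kinases, cyclins and phosphatases, CDK1 and cyclin A2 were the members that were at least 2-fold lower. CDK1, the cyclin-dependent kinase at the centre of mitotic entry, was at 80.4 and 64.6 FPKM in NC, 104 and 90.6 in siEZH1, and 19.7 and 69.8 in siUXT. Its siUXT level under PBS was the lowest of the 6 by a wide margin, at 0.245 of NC, and under TNF the siUXT level lay between the NC and siEZH1 levels of that treatment. CCNA2, the cyclin of S and G2 phase, was at 33.8 and 24.7 FPKM in NC, 36.8 and 35.4 in siEZH1, and 16.2 and 27.9 in siUXT. It showed the same order, with siUXT under PBS lowest and both siEZH1 libraries highest.

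The B-type cyclins did not share the depth of that difference. CCNB1, the main mitotic partner of CDK1, was at 91.8 and 80.2 FPKM in NC, 118 and 104 in siEZH1, and 76.1 and 96.5 in siUXT, and its siUXT library under PBS was the lowest of 6 by a small margin. CCNB2 ran from 52.6 to 64.3 FPKM over the 6 libraries, with a log2 ratio of -0.03 for siUXT under PBS. PLK1, the Polo-like kinase of mitotic entry and spindle assembly, was at 93.9 and 90.3 FPKM in NC, 80.2 and 82.4 in siEZH1, and 107 and 85.9 in siUXT, with siUXT under PBS its highest library and both siEZH1 libraries its lowest. AURKA, the centrosomal Aurora kinase, was at 39.3 and 33.8 FPKM in NC, 45.5 and 43.0 in siEZH1, and 38.3 and 36.6 in siUXT, and siUXT overlapped NC. CDC25B, a phosphatase that activates CDK1, reached 96.6 FPKM in siUXT under PBS against 72.5 in NC, its log2 ratio of 0.41 being the highest among the members, and it was at 63.4 to 72.4 FPKM in the 4 libraries other than those. CDC25C, a phosphatase of the same family, stayed at 8.45 to 12.0 FPKM.

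In the chromosomal passenger complex, which corrects wrong microtubule attachments, no member was 1.5-fold lower in siUXT under PBS. AURKB, its kinase, was at 60.2 and 67.0 FPKM in NC, 58.4 and 69.2 in siEZH1, and 68.7 and 66.8 in siUXT, a range within which no transfection stood apart. BIRC5 (survivin), which brings the complex to the centromere, was at 96.5 and 89.3 FPKM in NC, 62.5 and 64.7 in siEZH1, and 73.5 and 59.1 in siUXT. Both NC libraries were above all 4 knockdown libraries for BIRC5, and siUXT and siEZH1 overlapped. INCENP, the scaffold, lay between 15.4 and 22.4 FPKM, with the siUXT library at the top of that range under PBS and at its foot under TNF.

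The checkpoint genes divided. MAD2L1, a core inhibitor of CDC20, was at 81.9 and 53.5 FPKM in NC, 103 and 83.3 in siEZH1, and 29.2 and 60.4 in siUXT. TTK, the kinase that starts checkpoint signalling at kinetochores, was at 14.9 and 10.0 FPKM in NC, 20.3 and 14.5 in siEZH1, and 3.77 and 11.9 in siUXT. For both genes the siUXT library under PBS was far below the 5 others, and under TNF siUXT lay slightly above NC. SGOL2, a shugoshin that protects centromeric cohesin, was at 5.24 and 3.17 FPKM in NC, 5.47 and 4.13 in siEZH1, and 0.785 and 4.402 in siUXT. Its siUXT level under PBS was 0.150 of NC, the smallest ratio of FPKM among the 14 members that were at least 2-fold lower.

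CDC20, the APC/C activator that the checkpoint restrains, went the other way under PBS, at 169 and 175 FPKM in NC, 160.0 and 155 in siEZH1, and 216 and 154 in siUXT. It was highest in siUXT under PBS and lowest in siUXT under TNF. BUB1B (BubR1), part of the inhibitory complex with MAD2, was at 37.4 and 30.3 FPKM in NC, 44.8 and 41.8 in siEZH1, and 32.2 and 34.1 in siUXT. The siUXT levels of BUB1B lay within the NC range. BUB1 was at 24.7 FPKM in siUXT and 30.7 in NC under PBS, a log2 ratio of -0.30. BUB3, which carries BUB1 and BubR1 to kinetochores, had a log2 ratio of -0.13, and UBE2C, an E2 enzyme of the APC/C and the member with the highest mean level, had -0.02.

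Kinetochore genes had a median log2 ratio of -0.59 in siUXT under PBS. NUF2, a subunit of the microtubule-binding NDC80 complex, was at 12.3 and 9.82 FPKM in NC, 15.6 and 12.4 in siEZH1, and 3.76 and 9.58 in siUXT, with siUXT under PBS lowest. Its partners NDC80 and SPC25 had log2 ratios of -0.78 and -0.59, and the fourth subunit, SPC24, had 0.27 (11.3 FPKM in siUXT, 9.17 in NC). CENPA, the centromeric histone H3 variant, was at 20.5 and 18.4 FPKM in NC, 15.4 and 18.6 in siEZH1, and 18.9 and 16.7 in siUXT, and its siUXT libraries did not stand apart. CENPE, the kinetochore kinesin, had a log2 ratio of -0.98, just short of 2-fold on the log2(FPKM + 1) scale. It went from 2.07 FPKM in NC to 0.558 in siUXT, a plain ratio of 0.270. CENPF had a log2 ratio of -0.35.

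Of the 12 spindle kinesins and microtubule-associated proteins, 4 were at least 2-fold lower in siUXT under PBS. KIF11 (Eg5), which pushes spindle poles apart, was at 11.4 and 9.64 FPKM in NC, 14.2 and 12.8 in siEZH1, and 3.67 and 9.81 in siUXT. KIF14, a kinesin of cytokinesis, was at 4.24 and 3.53 FPKM in NC, 5.99 and 4.64 in siEZH1, and 0.969 and 3.17 in siUXT. KIF18A, which dampens chromosome movement at the metaphase plate, was at 12.3 and 6.39 FPKM in NC, 18.4 and 11.3 in siEZH1, and 4.96 and 7.44 in siUXT. The siUXT library under PBS was the lowest of 6 for all 3 kinesins, though KIF18A was nearly as low in NC under TNF.

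ASPM, a spindle pole protein, was at 4.91 and 3.70 FPKM in NC, 6.69 and 4.59 in siEZH1, and 1.07 and 4.56 in siUXT. KIF20B, a kinesin of late cytokinesis, was at 2.74 and 2.45 FPKM in NC, 5.46 and 6.49 in siEZH1, and 0.958 and 3.61 in siUXT. KIF20B was lowest in siUXT under PBS and highest in both siEZH1 libraries. Its log2 ratio of -0.94 in siUXT under PBS was just outside 2-fold, while its FPKM there was 0.349 of NC. The other motors and spindle proteins had log2 ratios from -0.64 for NUSAP1 to 0.30 for KIF20A under PBS: KIF23 was at -0.31, TPX2 at -0.12, PRC1 at -0.01, KIF4A at 0.08 and KIF2C, a microtubule depolymerase, at 0.19.

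Condensation and cytokinesis genes had the lowest role medians in siUXT under PBS, at -1.05 and -0.99. The cytokinesis role held only 2 genes, ECT2 and ANLN. The cytokinesis kinesins KIF14 and KIF20B were counted with the spindle genes. TOP2A, the topoisomerase that untangles sister chromatids, was at 26.3 and 21.4 FPKM in NC, 34.6 and 32.1 in siEZH1, and 12.0 and 25.6 in siUXT. SMC4, a core ATPase of condensin, was at 17.0 and 15.1 FPKM in NC, 20.3 and 18.98 in siEZH1, and 6.31 and 17.2 in siUXT. SMC2, its partner, was at 7.32 and 4.87 FPKM in NC, 7.22 and 5.52 in siEZH1, and 3.07 and 5.04 in siUXT. TOP2A and SMC4 were lowest in siUXT under PBS, and their siUXT levels under TNF were within the NC range or just above it. SMC2 had NC and siUXT levels under TNF that were nearly equal. NCAPG, the remaining condensin subunit of the list, had a log2 ratio of -0.75, and all 4 condensation genes were at least 1.5-fold lower.

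ECT2, the exchange factor that activates RhoA for the cleavage furrow, was at 25.2 and 21.1 FPKM in NC, 32.9 and 29.5 in siEZH1, and 8.91 and 25.4 in siUXT, with siUXT under PBS again far below the rest. ANLN, a furrow scaffold, had a log2 ratio of -0.57. Across all roles, the 14 members that were at least 2-fold lower had siUXT under PBS as the lowest of the 6 libraries in 14 of 14 cases. This follows largely from their choice by a low level in that library. Under TNF, 12 of these 14 were above NC, where 52.0% of all loci were, and their log2 ratios ranged from -0.12 to 0.37.

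**Figure D2:**
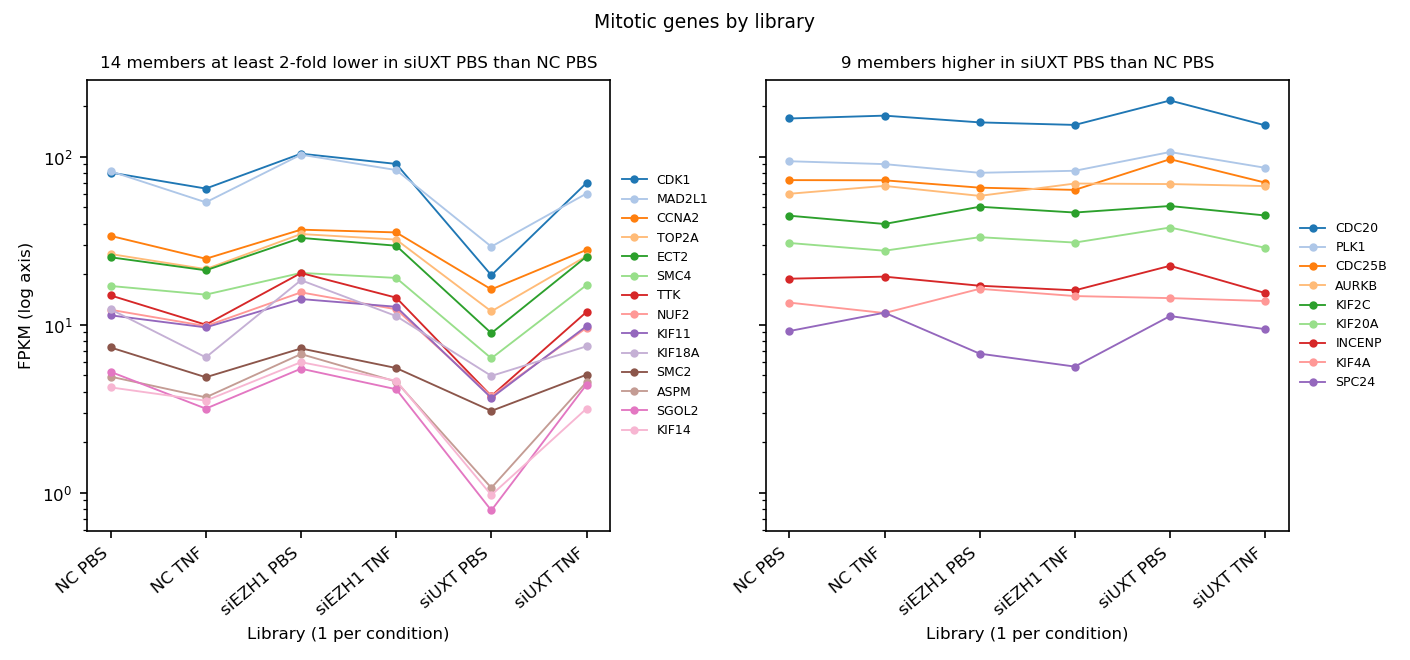
FPKM (log axis) in each of the 6 libraries for the 14 members at least 2-fold lower (left) and the 9 members higher (right) in siUXT than in NC under PBS; each point is 1 library, lines join the points of a gene, and there are no error bars because each condition has 1 library. CDK1 stands at 19.7 FPKM in siUXT under PBS and at 64.6 to 104 in the other 5 libraries, whereas PLK1 is at 80.2 to 107 throughout.

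In all, 28 members were lower than NC in siUXT under PBS and higher under TNF, and 6 were the reverse: CDC25B, PLK1, AURKB, INCENP, CDC20 and SPC24. Another 7 were lower under both treatments (CDC25C, BIRC5, UBE2C, NUF2, CENPA, CENPE and KIF14), and KIF2C, KIF4A and KIF20A were higher under both. Under PBS, 9 members were above NC by any size, against 53.4% of loci, and under TNF 31 were, against 52.0%. The share of all loci with each of these sign patterns was not counted. Whether these pattern counts set the members apart from other genes is therefore not known. No test of the difference between the treatments is possible with 1 library in each cell of the design.

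In siEZH1 cells most members were slightly higher than in NC, under both treatments. By any size, 32 of 44 were higher under both PBS and TNF, where 40.7% of loci were, and 8 were lower under both, where 37.7% of loci were. The median log2 ratios were 0.25 under PBS and 0.31 under TNF, beside 0.00 and 0.02 for all loci. For 27 members both siEZH1 libraries were above both NC libraries (31.1% of loci), and for 6 members both were below (28.4% of loci). The differences were small. At 1.5-fold, KIF20B was the 1 member that was higher under both treatments (0.464% of loci), and 0 members were lower under both (2.38% of loci).

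The higher members came from most roles. All 12 spindle kinesins and microtubule-associated proteins were higher under both treatments, with medians of 0.33 and 0.31, as were 6 of 8 checkpoint genes, 5 of 8 entry genes, 4 of 7 kinetochore genes and 3 of 4 condensation genes. KIF20B had log2 ratios of 0.79 and 1.12, or 1.99 and 2.65 times the NC FPKM. KIF18A followed with 0.54 and 0.73, and MAD2L1 had 0.32 and 0.63. CDK1 had 0.37 and 0.48, so the member with the lowest log2 ratio in siUXT under PBS was among those above NC here. Of the 14 members that were at least 2-fold lower in siUXT under PBS, 13 were above NC in both siEZH1 pairs, the exception being SMC2 at -0.02 and 0.15. How many of the 772 loci at least 2-fold lower there were also above NC in both siEZH1 pairs was not counted. The 13 members are therefore not shown to differ from other such loci.

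The members below NC under both treatments were CDC25B, CDC25C, PLK1, INCENP, BIRC5, CDC20, UBE2C and SPC24. BIRC5 had log2 ratios of -0.62 and -0.46. SPC24 was at 9.17 and 11.8 FPKM in NC and at 6.73 and 5.63 in siEZH1, or -0.40 and -0.95, while its NDC80 complex partners NDC80, NUF2 and SPC25 were at 0.26 to 0.45. PLK1 was at -0.23 and -0.13 and CDC20 at -0.08 and -0.18. CENPA was below NC under PBS (-0.39) and level with it under TNF (0.02).

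**Figure D3:**
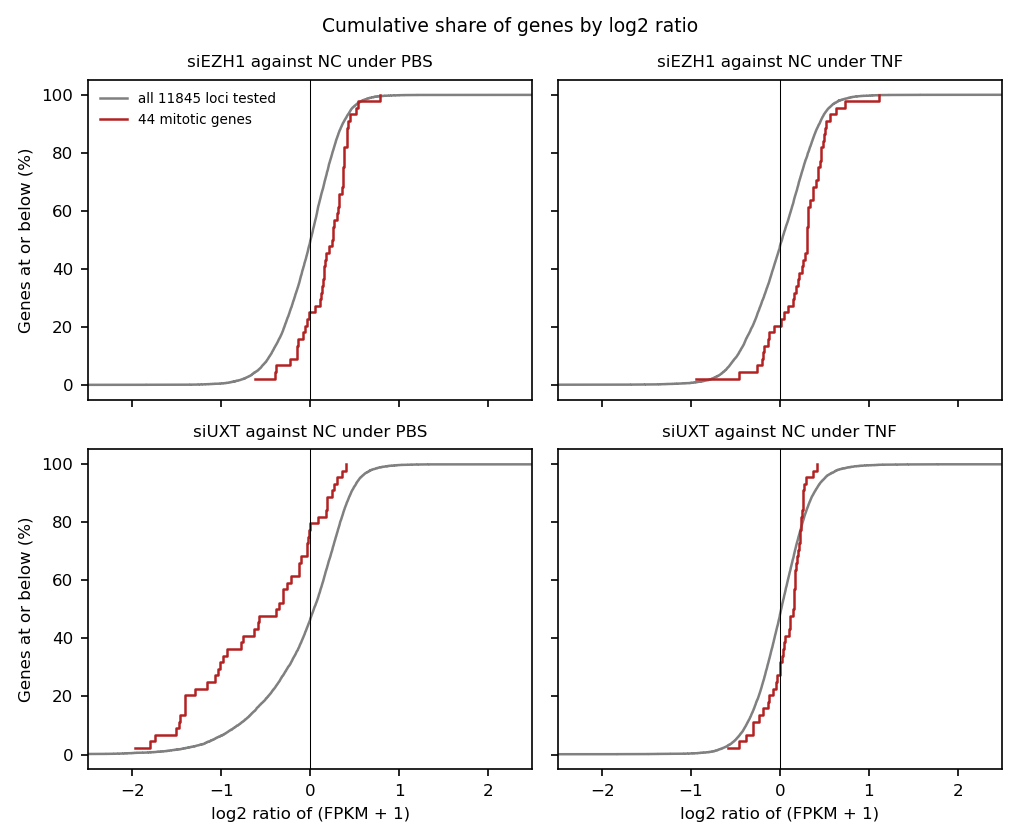
Cumulative share of loci (vertical axis) at or below each log2 ratio (horizontal axis) for the 44 members and for all 11845 tested loci, 1 panel per knockdown pair. Over most of its length the member curve lies to the right of all loci in both siEZH1 panels (medians 0.25 and 0.31), to the left in siUXT under PBS (median -0.37), and to the right in siUXT under TNF (median 0.15), where it crosses near the top.

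Over 6 libraries, limma called 0 members for siEZH1 and 0.0169% of loci (2 loci). Before adjustment, 3 members had p under 0.05, against 8.21% of loci: KIF20B with a log2 change of 0.95 (SE 0.34), SPC24 with -0.67 (SE 0.22) and BIRC5 with -0.54 (SE 0.17), each with a Benjamini-Hochberg adjusted p of 0.60 by limma. The call depended on the siUXT libraries, which enter this fit through the shared spread. Without the siUXT library under PBS, the siEZH1 effect comes from the same 4 libraries with a smaller estimated spread on 1 residual degree of freedom, and limma called 17 members higher, against 11.8% of loci, and 2 lower, against 14.7% of loci. With both siUXT libraries left out, it called 17 members higher and 2 lower, where it called 1375 of 11845 loci higher and 1723 lower. Without siUXT under PBS, KIF20B had a log2 change of 0.95 and an adjusted p of 0.011 by limma, KIF18A had 0.64 and 0.012, and CDK1 had 0.43 and 0.011. The members called lower in that fit were BIRC5, at -0.54 with an adjusted p of 0.0089 by limma, and SPC24, at -0.67 with 0.026. The members called higher beside those 3 were CCNB1, AURKA, BUB1, BUB1B, MAD2L1, TTK, NDC80, SPC25, KIF11, KIF23, NUSAP1, ECT2, TOP2A and NCAPG.

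With TNF, most members were lower than with PBS in NC and siEZH1 cells and higher in siUXT cells. In both NC and siEZH1, 29 of 44 members were lower with TNF than with PBS, where 35.1% of loci were lower in both. The medians were -0.19 in NC and -0.12 in siEZH1, against -0.02 and 0.01 for all loci. At 1.5-fold, MAD2L1 and KIF18A were lower in NC (1.98% of loci) and KIF18A in siEZH1 (1.35% of loci). KIF18A went from 12.3 to 6.39 FPKM in NC and from 18.4 to 11.3 in siEZH1. TTK went from 14.9 to 10.0 in NC and from 20.3 to 14.5 in siEZH1. In siUXT the order was reversed: 18 members were at least 1.5-fold higher with TNF (16.8% of loci), and CDK1 was at 3.54 times and SGOL2 at 5.61 times their PBS FPKM. Those ratios are taken to the siUXT library under PBS, the lowest of the 6 for 26 members. Under TNF, siUXT was close to NC, with a member median log2 ratio of 0.15 and CDK1 at 69.8 against 64.6 FPKM.

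For TNF, limma over 6 libraries called 0 members and 0.414% of loci (49 loci), and 0 members had p under 0.05 before adjustment, against 3.96% of loci. Without the siUXT library under PBS, limma called 2 members lower, against 0.295% of loci: KIF18A with a log2 change of -0.76 and an adjusted p of 0.018, and TTK with -0.50 and 0.046. Without the siUXT library under TNF instead, limma called 1 member lower, KIF18A, and TTK had the same log2 change with an adjusted p of 0.054. The NC and siEZH1 libraries under TNF were also the shallower ones, at 0.719 and 0.720 of the depth of NC under PBS, while both siUXT libraries were near 0.95. The part of depth in the TNF differences was not tested.

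**Figure D4:**
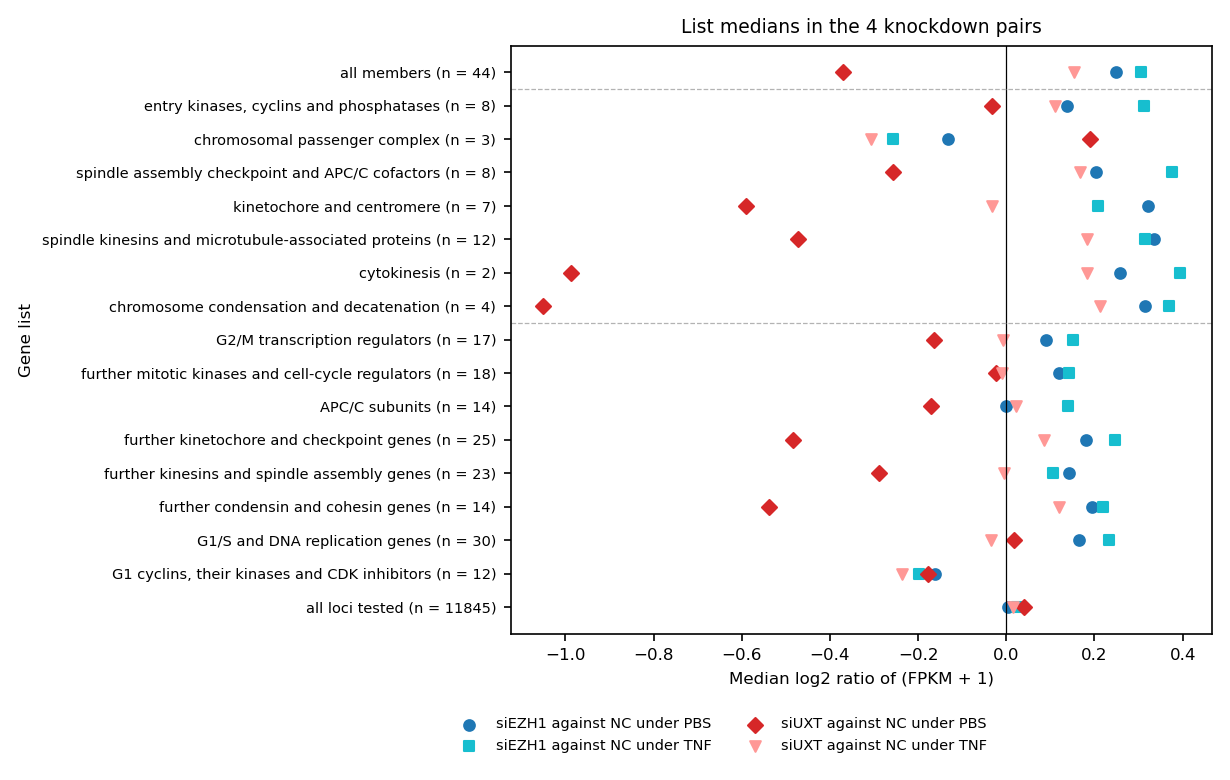
Median log2 ratio (horizontal axis) of each role of the members and of each wider cell-cycle list, for the 4 knockdown-against-NC pairs, with the median of all tested loci for reference. Condensation genes have the lowest siUXT median under PBS at -1.05, and G1/S and replication genes are near 0 at 0.02.

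Other cell-cycle genes from lists set beside the members gave the context. In none of the 8 lists did limma over 6 libraries call a gene, for siEZH1, siUXT or TNF, in either direction. The counts at 1.5-fold lower in siUXT under PBS stand beside 16.4% of all loci. The share was 17.6% of the transcription regulators, 21.4% of APC/C subunits, 13.3% of G1/S and replication genes and 25.0% of G1 cyclins and inhibitors. Under TNF the 8 list medians for siUXT lay between -0.24 and 0.12. Among 25 tested further kinetochore and checkpoint genes, 11 were at least 1.5-fold lower in siUXT under PBS, with a median log2 ratio of -0.48; CENPQ, of the inner kinetochore, went from 6.20 FPKM in NC to 0.871 in siUXT. CENPM, in the same list, was below NC in all 4 knockdown libraries, at 24.8 and 30.0 FPKM in NC, 16.1 and 16.6 in siEZH1, and 22.9 and 15.4 in siUXT. CENPN had a log2 ratio of -0.24 and CDCA8, a passenger complex subunit, 0.10. Of 14 further condensin and cohesin genes, 7 were lower by 1.5-fold with a median of -0.54, and the cohesin subunit STAG2 went from 12.3 FPKM in NC to 3.20 in siUXT, while NCAPD3 and SMC1A had log2 ratios of 0.08 and 0.20.

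Of 23 tested further kinesins and spindle assembly genes, 7 were at least 1.5-fold lower (median -0.29). DLGAP5 and SKA2 had log2 ratios of -1.05 and -1.09, SKA3 had -0.37, and TACC3 had 0.24. Of 18 further mitotic kinases and regulators 7 were lower (median -0.02). PBK, a mitotic kinase, went from 53.2 FPKM in NC to 15.7 in siUXT, and PLK4, the kinase of centriole duplication, had -1.14, whereas securin (PTTG1) and CKS1B had 0.20 and -0.03. Among 14 APC/C subunits 3 were lower by 1.5-fold (median -0.17): ANAPC13 and ANAPC4 had log2 ratios of -1.52 and -1.09, and ANAPC5 and ANAPC1 had 0.21 and -0.21.

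Of 17 G2/M transcription regulators 3 were at least 1.5-fold lower (median -0.16). NFYB, a subunit of the CCAAT-binding NF-Y, was at 4.76 and 4.04 FPKM in NC, 7.48 and 5.96 in siEZH1, and 1.99 and 4.80 in siUXT, and RBBP4, a MuvB subunit, had -0.53, with E2F8 and TFDP1 at 0.01. Of 30 G1/S and replication genes 4 were lower, and their median was 0.02. CCNE2, a cyclin E, went from 8.26 FPKM in NC to 2.07 in siUXT, PRIM1, a primase subunit, had -0.82, and GINS2 and GINS3, of the replicative helicase, had -0.07 and 0.10. Of 12 tested G1 cyclins, their kinases and CDK inhibitors 3 were lower (median -0.18): RB1 went from 11.5 FPKM in NC to 3.01 in siUXT, and CCND1 was below NC in all 4 knockdown libraries, at 111 and 130.5 FPKM in NC, 90.9 and 101 in siEZH1, and 67.9 and 82.1 in siUXT. CDKN2C was at 5.99 FPKM in NC and 5.98 in siUXT under PBS, and CDK2 had a log2 ratio of -0.26. KIFC1 and CCND2 were listed at 0 and CENPP was below the minimum level, so these 3 were not tested. In siEZH1 the list medians were 0.18 and 0.25 for further kinetochore genes, 0.17 and 0.23 for G1/S and replication genes, and -0.16 and -0.20 for G1 cyclins and inhibitors.

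Members with a lower mean level tended to have a lower siUXT ratio under PBS. Across the 44 members, Pearson's r between the mean log2 level and that ratio was 0.51 and Spearman's rho 0.48, against 0.08 and 0.11 across all loci. For siUXT under TNF, r was -0.11 and rho -0.17. Relations of similar size were found in other pairs. For siEZH1 against NC, r was -0.38 under PBS and -0.19 under TNF. For TNF against PBS, r was 0.23 in NC, 0.48 in siEZH1 (rho 0.54) and -0.50 in siUXT. The mean includes the library itself, and genes are not independent replicates. Across the 38 members with a promoter entry, r between GC content of the window and the ratio was 0.20 and rho 0.22, beside 0.10 and 0.10 across 8923 loci.

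The loci with a profile most like the members' mean over the 6 libraries were KITLG, SMEK2, FNBP1L and NEBL, each with a Pearson's r of 0.999, and RTKN2 with 0.998. KITLG, the ligand of the KIT receptor, was at 166 and 116 FPKM in NC, 258 and 194 in siEZH1, and 45.7 and 125 in siUXT. This likeness was ranked over 6 libraries among all tested loci that are not members, and siUXT under PBS was the lowest of the 6 for KITLG too. Without that library, r for the same 5 loci was 0.992 to 0.995 over 5 libraries, an alternative chosen after seeing the data.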

How the data were processed

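Gene expression was taken from 6 deposited files of FPKM values per gene symbol, 1 for each HCT116 RNA-seq library. Per the submitters' processing notes, the series used FastQC, cutadapt, TopHat2, Bowtie and SICER with hg19. The authors deposited FPKM values with the counting program, annotation and strand setting not given in the sources used here, and overlapping genes may share fragments.

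Symbols with the same values in all 6 libraries were merged, those averaging 1 FPKM or more were kept, and log2(FPKM + 1) was fitted with limma 3.58.1 in R 4.3.3 (additive transfection and treatment, 2 residual degrees of freedom, Benjamini-Hochberg adjustment over 11845 loci, threshold 0.05, tested on simulated data). The p-values rest in part on the spread left by the additive terms, which is how far the differences between transfections disagree between PBS and TNF. With 1 library per condition, technical spread and a true difference between treatments cannot be told apart in it. For each locus, limma draws this spread towards that of other loci of similar level. The prior had 4.42 degrees of freedom beside the 2 residual ones. Without siUXT under PBS it had 5.15 beside 1. Alternatives were a pseudocount of 0.1, no filter, a mean of at least 5 FPKM, another scaling, unmerged symbols, and leaving out each library or transfection pair. Counts of members whose 2 siEZH1 libraries lay wholly above or below NC were added after the values were seen.

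The members and lists were chosen with earlier results of these data known. Values in full are given for 12 preset members and for those at least 2-fold different in siUXT under PBS or at least 1.5-fold the same way in both siEZH1 pairs. From each wider list, the 2 genes with the largest and the 2 with the smallest mean absolute log2 ratio over the knockdown pairs are named; other names were chosen after their values were seen. Promoters are RefSeq windows of GRCh38.p14. AURKA, BIRC5, BUB3, TTK, UBE2C and TPX2 had no entry. Protein length and gene span were not used here.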

Additional observations from a re-analysis of the deposited data

Results flagged for a closer look

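Several siUXT-against-NC ratios had opposite signs under PBS and TNF, or the siEZH1 ratios did. The values below are the TNF log2 ratio minus the PBS one, each from 1 library per condition, and the difference was not tested. All siUXT values share the same 4 libraries.

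For siUXT, the median of the 44 members moved from -0.37 to 0.15, a difference of 0.53. The difference was 2.18 for SGOL2, 2.09 for CDK1, 1.97 for TTK, 1.76 for ASPM, 1.66 for ECT2 and 1.63 for MAD2L1. It was 1.48 for SMC4, 1.43 for KIF11, 1.36 for KIF20B, 1.35 for KIF18A, 1.32 for TOP2A, 1.18 for CCNA2 and 1.07 for SMC2. CCNB1 had 0.53, BUB1B 0.37 and AURKA 0.14. In the opposite direction, CDC20 had -0.54, PLK1 -0.25 and AURKB -0.19.

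For siEZH1, CENPA differed by 0.41, SMC2 by 0.17 and AURKB by 0.0876, each from a value below 0 under PBS to one above 0 under TNF.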

How the results depend on the processing

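The siUXT library under PBS limits what can be said: the members' siUXT deficit rests on it alone. Leaving out 1 library or a transfection pair in turn, the limma fit called 0 to 19 members for siEZH1, 0 to 24 for siUXT and 0 to 2 for TNF, where the fit over 6 libraries called 0 of each. The siEZH1 count was 19 without siUXT under PBS, 18 without siUXT under TNF and 19 without the siUXT pair. The siUXT count was 24 without siUXT under TNF, 1 without siUXT under PBS and 1 without NC under TNF. The loci called ranged from 42 to 3132 for siEZH1 (2 over 6 libraries), from 46 to 3604 for siUXT (5) and from 126 to 328 for TNF (49). With a mean of at least 5 FPKM, limma called 1 locus for siEZH1 and 1 for siUXT; the causes of these changes were not tested. With a pseudocount of 0.1 it called 0 loci for siUXT, with 419 at an unadjusted p under 0.05, and with no filter on low values 23 loci for TNF. All 35 recomputed member medians moved by less than the SD between the pairs of the same contrast. Of 444 values of single members, 434 moved by less than the SD between the PBS and TNF pairs, 10 by more, and 1 changed sign from a size of 0.017. For siUXT these SDs come from the difference between PBS and TNF itself, so they are wide limits. SGOL2 in siUXT under PBS moved from -1.81 to -2.59 with a pseudocount of 0.1, within its SD. A value within its SD is therefore not shown to be stable. With that pseudocount, 16 members were at least 2-fold lower in siUXT under PBS, where 14 were in the main setting. The share of all loci was not recounted. The fit compares transfections within treatment; without the treatment term it called 0 members and 2 loci for siEZH1 and 0 members and 5 loci for siUXT, and without the transfection term 0 members and 54 loci for TNF. The labels carry no replicate numbers to pair. Depth is known only as a ratio between libraries.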

Other observations

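WAPAL, which releases cohesin from chromosomes, did not follow the members: it was at 13.2 and 39.0 FPKM in NC, 23.2 and 12.6 in siEZH1, and 6.95 and 32.0 in siUXT (PBS first, TNF second), so TNF was higher in NC and siUXT and lower in siEZH1. For BIRC5, CENPM and CCND1, all 4 knockdown libraries were below both NC libraries. The members CDC25C and UBE2C were also below the matched NC library in all 4 pairs. The share of all loci with either pattern was not counted. These ratios share the NC libraries and are given as values.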
